A study of Mus musculus with 18 samples.

Results

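Connexins and pannexins are membrane proteins that form large-pore channels, and 8 of their genes were described over the 6 groups of this series: Gja1, Gjb1, Gjb2, Gjb5, Gjb6, Panx1, Panx2 and Panx3. Each was read from 1 probe set that the platform's table pairs with that gene alone, so that 8 of 21789 such probe sets were used, and 8 of 19938 genes. Epidermis of hindpaw skin was profiled in naive mice and 2 days after injection of 50 µl of complete Freund's adjuvant (CFA), an emulsion of oil and killed mycobacteria that inflames the paw. Dorsal root ganglia (DRG) from lumbar levels 1-6, which hold the cell bodies of sensory neurons, were profiled in naive mice. Both tissues came from mutant mice (K14Cre-Trpa1 fl/fl) and from control mice (K14Cre-Trpa1+/+, labelled wild type), with 3 arrays in each of the 6 groups.

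Mice of both genotypes thus carried Cre recombinase driven by the keratin 14 promoter of keratinocytes, and only the mutants carried the floxed exons 22 to 24 of the ion channel gene Trpa1. The mice were adult males of at least 7 weeks on a mixed C57BL/6, CBA and Swiss Webster background, and the genotypes were bred as separate colonies. No array came from vehicle-injected mice, so injection and inflammation cannot be told apart here. The study asked whether deleting Trpa1 from keratinocytes alters the sensing of mechanical force, and later measured ATP release from skin. Connexins and pannexins are among the channels through which ATP may leave a cell.

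A connexin hexamer is a hemichannel, and hemichannels of adjacent cells dock to form gap junctions, through which ions and small metabolites pass between keratinocytes. Gja1 encodes connexin 43, the widespread gap junction protein of basal and spinous keratinocytes, while Gjb2 and Gjb6 encode connexins 26 and 30, in which mutations cause deafness and disorders of skin thickening. Pannexins do not usually form gap junctions, and pannexin 1 is a well-known ATP release channel.

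The 300 bases around the transcription start (250 before and 50 after) are shown for 4 members, chosen because Gjb2 and Gjb6 fell with CFA, Panx1 rose and Gja1 did not pass the test. They are RefSeq sequence of build GRCm38.p6, read 5′ to 3′ on the gene's own strand, at chr10:56377050-56377349 (plus strand) for Gja1, chr14:57104653-57104952 (minus) for Gjb2, chr14:57133562-57133861 (minus) for Gjb6 and chr9:15045429-15045728 (minus) for Panx1. Capitals mark matches on either strand to 4 motifs, AP-1 (TGANTCA), STAT (TTCNNNGAA), GC box (GGGCGG) and TATA box (TATAAA).
Gja1: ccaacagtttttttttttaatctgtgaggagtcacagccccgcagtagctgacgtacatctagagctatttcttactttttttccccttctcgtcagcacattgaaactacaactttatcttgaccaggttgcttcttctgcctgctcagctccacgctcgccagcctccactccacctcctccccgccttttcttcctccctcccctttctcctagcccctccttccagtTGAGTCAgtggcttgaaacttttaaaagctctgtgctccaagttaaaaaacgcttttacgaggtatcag
Gjb2: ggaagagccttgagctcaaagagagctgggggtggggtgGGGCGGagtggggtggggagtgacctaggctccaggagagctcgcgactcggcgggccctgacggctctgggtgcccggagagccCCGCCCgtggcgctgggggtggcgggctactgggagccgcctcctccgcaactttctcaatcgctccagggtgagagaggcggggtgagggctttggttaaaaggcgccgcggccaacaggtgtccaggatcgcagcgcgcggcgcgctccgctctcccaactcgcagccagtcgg
Gjb6: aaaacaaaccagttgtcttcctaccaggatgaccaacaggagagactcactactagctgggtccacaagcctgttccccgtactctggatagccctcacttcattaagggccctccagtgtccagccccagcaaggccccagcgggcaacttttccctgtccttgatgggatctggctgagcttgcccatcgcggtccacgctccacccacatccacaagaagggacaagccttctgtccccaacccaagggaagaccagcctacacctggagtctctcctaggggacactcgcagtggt
Panx1: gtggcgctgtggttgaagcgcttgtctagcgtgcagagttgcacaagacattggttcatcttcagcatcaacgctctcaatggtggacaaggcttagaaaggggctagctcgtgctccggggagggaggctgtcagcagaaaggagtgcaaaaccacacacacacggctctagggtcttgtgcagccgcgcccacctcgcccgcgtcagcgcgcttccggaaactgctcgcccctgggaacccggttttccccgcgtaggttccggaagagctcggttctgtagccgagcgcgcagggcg

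Gja1 held 1 AP-1 match, TGAGTCA, whose first base lay 19 bases before the start, and Gjb2 held 2 GC boxes. Gjb6 and Panx1 held none of the 4 motifs in these windows. Of 32851 promoter windows of this length, 7.81% held the AP-1 letters, 8.3% the STAT letters, 35.7% the GC box and 13.6% the TATA box. Gjb2 was rich in G and C, at 70.0% with 27 CpG dinucleotides, and Gjb6 stood at 57.3% with 6. Panx1 had 61.3% G and C and 25 CpG, and Gja1 47.7% and 8, against a median of 52.7% and 7 over all windows. Gjb2 and Gjb6 are neighbours on chromosome 14, with Gja3 on the other side of Gjb2, and Gjb5 lies beside other connexin genes on chromosome 4. Gjb1 and Gjb5 also had windows in the table, while Panx2 and Panx3 are named only.

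Values are the authors' log2 signals after robust multi-array averaging (RMA), and the background of an array was set at the 95th percentile of the signals of 1222 olfactory-type receptor probe sets (Olfr, Vmn and Taar genes). Background lay at 4.57 to 4.79 in epidermis and at 5.78 to 5.93 in DRG. The number of arrays, 3 in each group, limits the precision. Trpa1 lay below background on all 12 epidermis arrays, at 3.61 to 3.97, so it could not check the genotype there. In DRG Trpa1 gave 8.99 ± 0.10 in control and 8.61 ± 0.21 in mutant mice (SD, n = 3), and whether its probes reach the deleted exons is not stated in the sources used. Keratinocyte markers were high in epidermis, and neuron and glia markers were high in DRG. Of 4 Merkel cell markers, Krt20 lay below background in every group, while Krt8 and Krt18 lay above it on every array. Atoh1 was above background on 3 CFA control and 2 CFA mutant arrays, and on 0 in the other groups.

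With CFA, 6 of the 8 genes changed in control epidermis, where 26.3% of the 23410 probe sets tested were called (11.5% higher and 14.8% lower). Gjb2, Gjb5, Gjb6 and Panx3 fell, and Panx1 and Panx2 rose. The same 6 genes were called in the same directions in mutant epidermis, where 26.0% of probe sets were called (12.9% higher and 13.1% lower). The CFA and naive arrays did not overlap for 6 of 8 genes in control mice and for 7 of 8 in mutant mice, beside 43.8% and 43.5% of all probe sets. The median change over the 8 genes was -0.49 on the log2 scale in each genotype, against 0.03 and 0.04 over all probe sets. That median fell in a gap and is no shift shared by the genes. On either side lay Gjb5 (-0.99) and Gja1 (0.01) in control mice, and Gjb5 (-1.08) and Gjb1 (0.10) in mutant mice. Calls are limma's moderated test with Benjamini-Hochberg adjustment over all 23410 probe sets, at an adjusted p under 0.05.

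**Figure D1:**
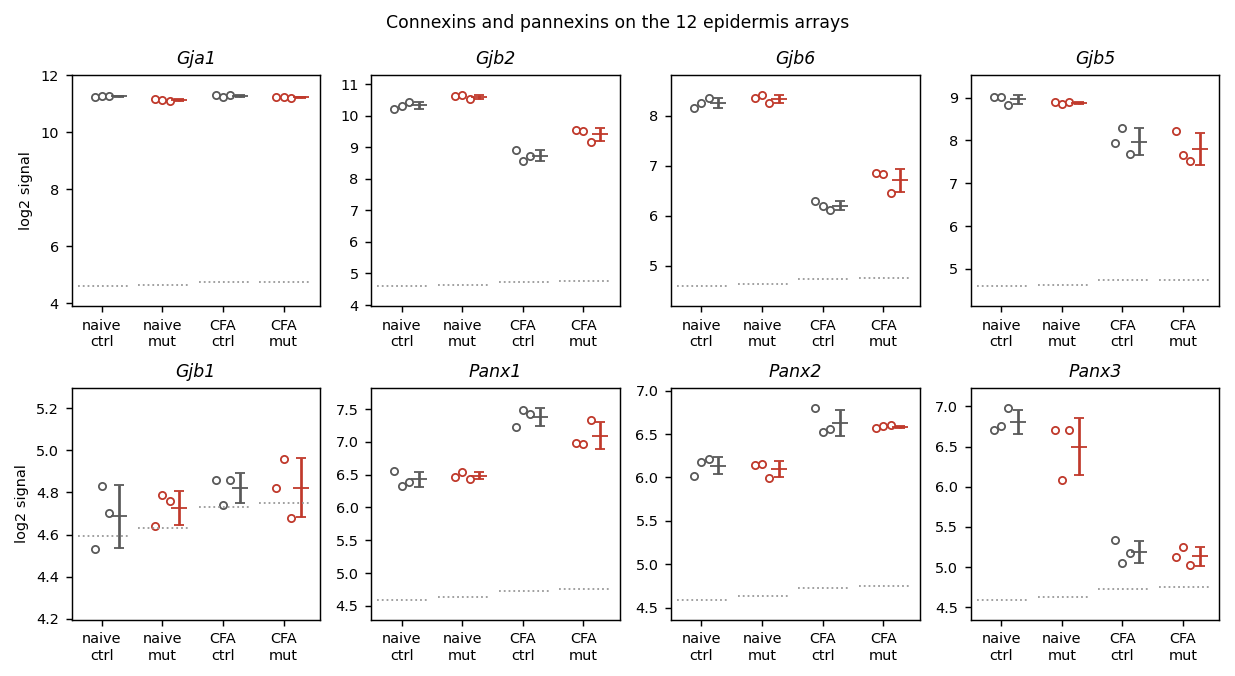
Log2 signal of each gene on the 12 epidermis arrays, by group (ctrl, control; mut, mutant), with open circles for single arrays, bars for the mean ± SD of 3 arrays, and dotted lines for the mean background of the group. Gjb2, Gjb6, Gjb5 and Panx3 are lower on every CFA array than on every naive array of the same genotype, Panx1 and Panx2 are higher, and the axes differ between genes.

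Connexin 43 (Gja1) was the member with the highest percentile rank, in the median at 97.8% of the named probe sets of naive control arrays. Its signal was 11.23, 11.26 and 11.28 on the naive control arrays and 11.31, 11.22 and 11.28 on the CFA control arrays. In mutant epidermis it was 11.18, 11.12 and 11.10 in naive and 11.24, 11.25 and 11.20 in CFA mice. The control groups overlapped, and the naive mutant arrays lay below the other 9. The change with CFA was 0.01 (95% interval -0.17 to 0.19, limma adjusted p = 0.931) in control and 0.10 (-0.06 to 0.26, adjusted p = 0.343) in mutant epidermis, so the intervals allow changes of up to 1.14-fold and 1.19-fold upward.

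Connexin 30 (Gjb6), a channel of differentiated keratinocytes, had the largest change of the 8 genes. Its signal was 8.15, 8.26 and 8.35 on naive control arrays and 6.30, 6.19 and 6.12 on CFA control arrays. It was 8.36, 8.41 and 8.25 on naive mutant arrays and 6.85, 6.84 and 6.45 on CFA mutant arrays. Every CFA array lay more than 1 log2 unit below every naive array. Gjb6 fell by 2.05 (SE 0.09) on the log2 scale in control mice, 4.14-fold (limma adjusted p = 1.23e-06), and fell by 1.63 (SE 0.12) in mutant mice, 3.09-fold (limma adjusted p = 4e-05).

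Connexin 26 (Gjb2), the neighbour of Gjb6, moved the same way from a signal of 10.22, 10.32 and 10.45 on naive control arrays to 8.92, 8.58 and 8.72 with CFA. In mutant epidermis it was 10.63, 10.65 and 10.52 in naive and 9.56, 9.51 and 9.17 in CFA mice. The 4 groups did not overlap, in the order naive mutant, naive control, CFA mutant and CFA control from high to low. Gjb2 fell 3.01-fold in control epidermis (log2 change -1.59, SE 0.11, limma adjusted p = 1.14e-05) and 2.28-fold in mutant epidermis (-1.19, SE 0.11, limma adjusted p = 0.000153).

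Gjb5, another beta connexin of keratinocytes, gave 9.02, 9.02 and 8.83 in naive control and 7.94, 8.29 and 7.68 in CFA control epidermis. Mutant arrays gave 8.89, 8.86 and 8.89 in naive and 8.22, 7.66 and 7.53 in CFA mice. The CFA arrays were low and more scattered, with an SD of 0.31 and 0.37 against 0.11 and 0.02 in the naive groups, and did not overlap with the naive arrays. Gjb5 fell 1.98-fold (log2 change -0.99, SE 0.15, limma adjusted p = 0.00114) in control mice and 2.11-fold (-1.08, SE 0.16, limma adjusted p = 0.00187) in mutant mice.

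Connexin 32 (Gjb1), known from myelinating Schwann cells and liver, was near background in epidermis. Its signal ran from 4.53 to 4.86 over the control arrays and from 4.64 to 4.96 over the mutant arrays, and the values of 1 naive control and 1 CFA mutant array were under their array's background. Neither genotype passed the test for Gjb1 (limma adjusted p = 0.359 and 0.48).

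Pannexin 1 (Panx1) moved against the beta connexins. Its signal was 6.56, 6.33 and 6.39 in naive control and 7.23, 7.49 and 7.42 in CFA control epidermis, and it was 6.47, 6.54 and 6.44 in naive mutant and 6.99, 6.97 and 7.34 in CFA mutant epidermis. All CFA arrays lay above all naive arrays, and CFA mutant replicate 3 was the highest of its group. Panx1 rose 1.94-fold (log2 change 0.95, SE 0.10, limma adjusted p = 0.000179) in control and 1.53-fold (0.61, SE 0.11, limma adjusted p = 0.00419) in mutant mice.

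Pannexin 2 (Panx2), best known from the nervous system, rose less. Its signal was 6.02, 6.18 and 6.21 in naive control, 6.80, 6.52 and 6.56 in CFA control, 6.14, 6.15 and 5.99 in naive mutant and 6.57, 6.59 and 6.60 in CFA mutant epidermis. The naive and CFA arrays did not overlap, and the change was 1.4-fold in each genotype (log2 change 0.49, limma adjusted p = 0.00845 in control and 0.00222 in mutant mice). Without limma's moderation of the variance the call in control mice was lost (adjusted p = 0.0552).

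Pannexin 3 (Panx3), known from skin and cartilage, fell. Its signal was 6.70, 6.75 and 6.98 in naive control and 5.33, 5.05 and 5.17 in CFA control epidermis, and it was 6.71, 6.08 and 6.70 in naive mutant and 5.13, 5.25 and 5.02 in CFA mutant epidermis. The CFA values lay just over background, and naive mutant replicate 2 was lower than the other naive arrays. Panx3 fell 3.09-fold (log2 change -1.63, SE 0.11, limma adjusted p = 1.01e-05) in control and 2.58-fold (-1.37, SE 0.16, limma adjusted p = 0.000593) in mutant mice.

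Markers of keratinocyte layers and of leukocytes moved with CFA too. Over all probe sets 26.3% were called with CFA in control and 26.0% in mutant epidermis. Of 6 suprabasal markers 4 fell in each genotype (Flg2, Lor, Ivl and Sbsn, while Krt1 and Krt10 were not called), and the mean signal of the list went from 10.88 to 11.03 in naive control to 9.64 to 10.01 in CFA control epidermis, and from 10.99 to 11.04 to 9.48 to 9.77 in the mutant. Of 5 basal markers 4 rose in control and 5 in mutant epidermis. Of 8 leukocyte markers 7 rose in control and 0 in mutant epidermis, with list means of 6.44 to 6.50 and 6.11 to 6.20 in the CFA groups against 5.99 to 6.12 and 6.09 to 6.19 in the naive groups. None of the 8 was called for the genotype difference in the CFA response. At an unadjusted limma p under 0.05, 5 had a lower response in the mutant, beside 8.26% of all probe sets. In CFA epidermis 1 of the 8 was called lower in mutant than in control mice. The part of these markers in the changes of the connexins and pannexins was not tested. In whole epidermis, fewer cells of a type and less RNA per cell cannot be told apart.

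Between genotypes, none of the 8 genes was called in naive epidermis, CFA epidermis or DRG, where 0.0299%, 0.179% and 0.0726% of all probe sets were called. At an unadjusted limma p under 0.05, 1 gene was higher in naive mutant epidermis (Gjb2), and 2 were higher (Gjb2 and Gjb6) and 1 lower (Panx1) in CFA mutant epidermis, while none reached it in DRG, beside 8.94%, 8.96% and 7.15% of all probe sets. The mutant and control arrays did not overlap for 2 genes in naive epidermis (Gjb2 and Gja1), for 2 in CFA epidermis (Gjb2 and Gjb6) and for 0 in DRG, beside 16.6%, 14.3% and 11.8% of all probe sets.

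**Figure D2:**
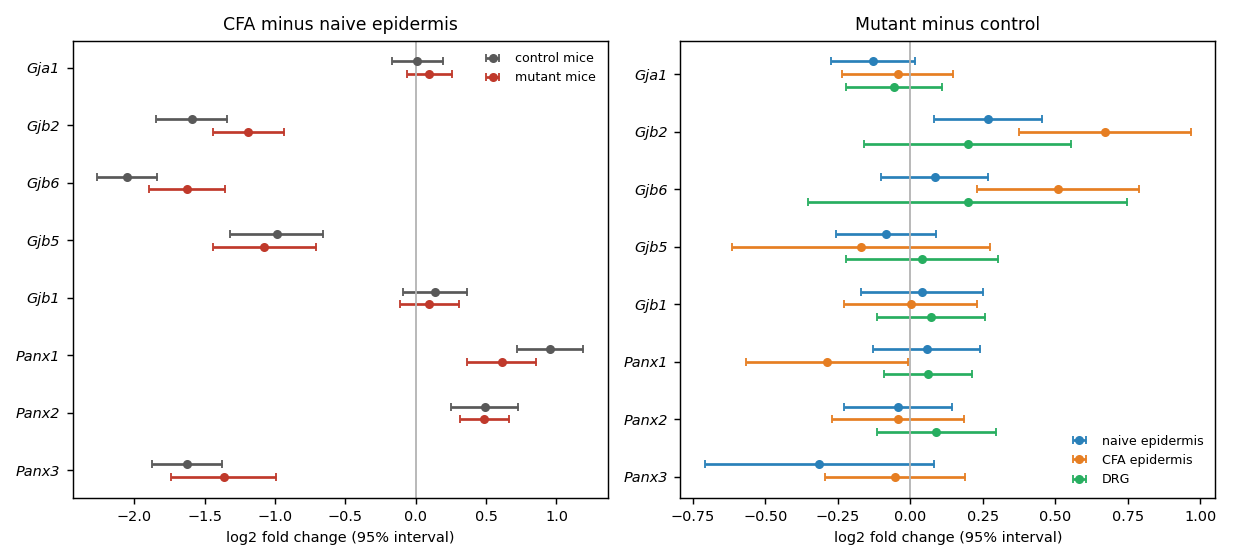
Log2 fold change of each gene with its 95% interval from limma, on the left for CFA minus naive epidermis in control and mutant mice, and on the right for mutant minus control mice, by tissue and treatment. On the left 6 genes lie clear of 0 in both genotypes, and on the right Gjb2 and Gjb6 in CFA epidermis reach 0.67 and 0.51. Panx3 in DRG, below background on every array, is not drawn.

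In CFA epidermis Gjb2 was 1.59-fold higher in mutant than in control mice (log2 difference 0.67, 95% interval 0.38 to 0.97), with 9.17 to 9.56 on the mutant and 8.58 to 8.92 on the control arrays. Its limma p was 0.000552 and its adjusted p 0.106, so it did not pass the threshold. Gjb6 was 1.42-fold higher (0.51, 0.23 to 0.79, limma adjusted p = 0.205), with 6.45 to 6.85 against 6.12 to 6.30. Among the CFA mutant arrays, both genes were lowest on replicate 3, on which Panx1 was highest. Without that array the differences were 0.79 for Gjb2 (limma adjusted p = 0.0324) and 0.64 for Gjb6 (limma adjusted p = 0.043), both past the threshold. Of the 6 fits that each left out 1 array, only this 1 called either gene. In the others the limma adjusted p reached 0.431 for Gjb2 and 0.640 for Gjb6.

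The same array had the highest mean of the stress and paw keratins, 10.77 against 9.69 and 9.95, and of the neutrophil list, 6.81 against 5.60 and 5.76, among the CFA mutant arrays. CFA control replicate 3 was likewise the highest of its group for both lists, at 10.52 and 7.22. Among the CFA control arrays Gjb6 was lowest on that replicate (6.12), but Gjb2 was lowest on replicate 2 (8.58). The leukocyte list was lower in CFA mutant than in CFA control epidermis on every array. The part of these lists in the genotype difference was not tested. When all 4 epidermis groups shared 1 fit, Gjb2 (0.67, limma adjusted p = 0.0178) and Gjb6 (0.51, limma adjusted p = 0.046) also passed, and over all alternatives the adjusted p ran from 0.0178 to 0.599 and from 0.043 to 0.64.

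Panx1 was 0.29 log2 units lower in CFA mutant than in CFA control epidermis (95% interval -0.57 to -0.01, limma adjusted p = 0.546), and the groups overlapped. In naive epidermis Gjb2 was 0.27 higher in the mutant (0.08 to 0.45, limma adjusted p = 0.475), while Gja1 was 0.13 lower (-0.27 to 0.02, limma adjusted p = 0.579). Panx3 differed by -0.31 (-0.71 to 0.08, limma adjusted p = 0.609), with its lowest naive value on mutant replicate 2. For Gjb5, Gjb1 and Panx2 the genotypes overlapped in both naive and CFA epidermis.

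The genotype difference in the CFA response was tested directly as an interaction over the 12 epidermis arrays, which called 0.0256% of all probe sets and none of the 8 genes, while at an unadjusted limma p under 0.05 it had 2 higher and 1 lower, beside 8.26% of all probe sets. The fall of Gjb6 was 0.43 smaller in mutant mice (95% interval 0.09 to 0.76, limma adjusted p = 0.484) and that of Gjb2 0.40 smaller (0.05 to 0.75, limma adjusted p = 0.541). The rise of Panx1 was lower in mutant mice, with a difference of -0.34 (-0.68 to -0.01, limma adjusted p = 0.593). For Gja1, Gjb1, Gjb5, Panx2 and Panx3 the interval of the interaction held 0.

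In DRG the pannexins of the nervous system were well over background. Panx1 gave 8.03, 7.95 and 8.07 in control and 8.10, 8.08 and 8.05 in mutant ganglia, and Panx2 gave 8.08, 7.90 and 7.76 and 8.06, 7.96 and 8.0. The genotypes overlapped for both, with differences of 0.06 (95% interval -0.09 to 0.21) and 0.09 (-0.11 to 0.29). Gja1, which satellite glia express, gave 7.66, 7.71 and 7.79 in control and 7.58, 7.75 and 7.67 in mutant DRG, a difference of -0.06 (-0.22 to 0.11). Gjb1, the Schwann cell connexin, gave 6.47, 6.46 and 6.33 and 6.51, 6.59 and 6.37, a difference of 0.07 (-0.11 to 0.26). These 4 intervals hold 0.

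The beta connexins of keratinocytes were near background in DRG. Gjb2 gave 5.73, 6.32 and 5.93 in control and 5.97, 6.39 and 6.22 in mutant ganglia, and Gjb6 gave 5.30, 6.00 and 5.24 and 5.27, 6.12 and 5.74, with 1 array of each genotype above background for Gjb6. Both were highest on replicate 2 of each genotype. The fibroblast list was at 8.87, 9.42 and 9.20 on the control and 8.93, 9.18 and 9.25 on the mutant arrays, while the suprabasal keratinocyte list was highest on control replicate 3 (5.76) and mutant replicate 1 (6.12). Among the cell type lists, only 2 were highest on replicate 2 of each genotype. These were endothelium (7.73 and 7.71) and satellite glia and Schwann cells (10.82 and 10.81). The part of any of these lists in the values of Gjb2 and Gjb6 was not tested. Gjb5 ran from 5.91 to 6.31, and Panx3 lay below background on all 6 arrays. The genotype difference was 0.20 for Gjb2 (-0.16 to 0.55) and for Gjb6 (-0.35 to 0.75). Leaving out 1 array moved these to 0.07 (without control replicate 1) to 0.36 (without control replicate 2) for Gjb2 and to -0.01 (without mutant replicate 2) to 0.44 (without control replicate 2) for Gjb6, and neither was called.

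**Figure D3:**
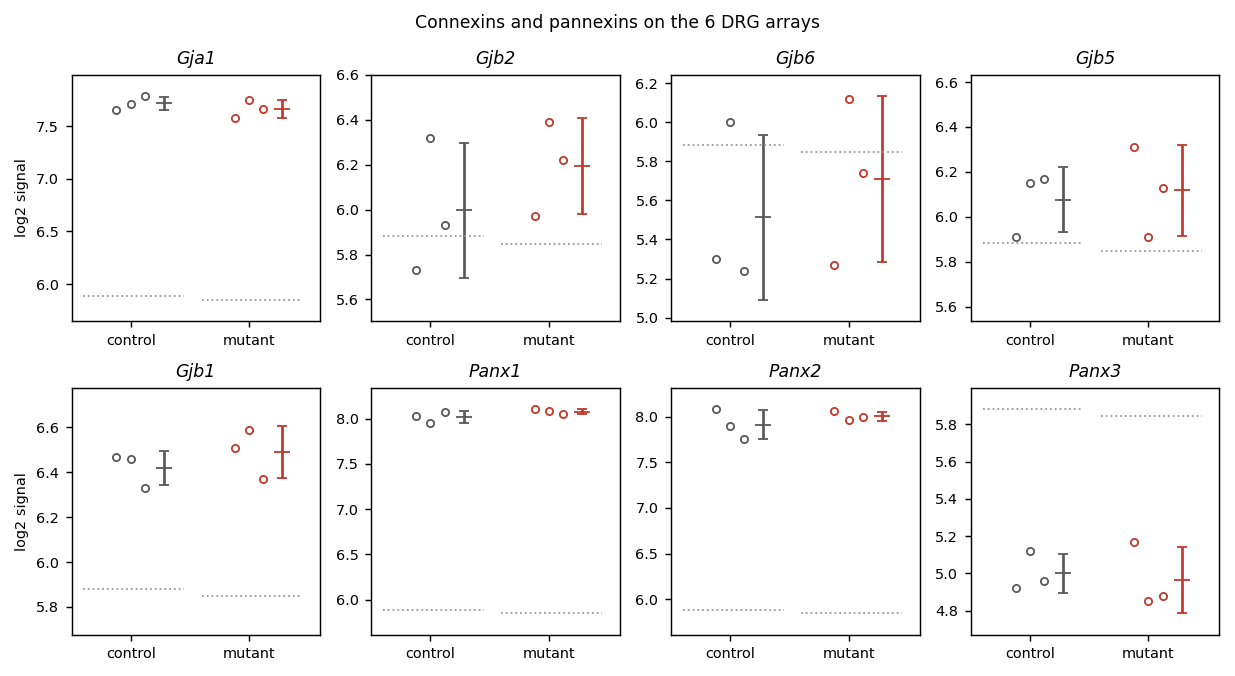
Log2 signal of each gene on the 6 DRG arrays, with open circles for single arrays, bars for the mean ± SD of 3 arrays, and dotted lines for the mean background of the group. Control and mutant arrays overlap for all 8 genes, Panx1 and Panx2 lie near 8, and Panx3 lies under the background line.

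Arrays of epidermis and DRG appear to have been normalised apart, with array medians of 5.37 to 5.48 and of 6.51 to 6.58. The tissues were therefore set side by side only by each probe set's percentile among named probe sets of its own array, with no test. In naive control mice the median percentile of Gjb2 was 95.9 in epidermis and 29.9 in DRG, and that of Gjb6 was 83.9 and 20.1. Gjb5 stood at 90.5 and 33.0, Panx3 at 63.4 and 15.3, and Gja1 at 97.8 and 65.8. Panx1 and Panx2 ranked the other way, at 58.7 and 55.6 in epidermis and 71.1 and 69.4 in DRG, as did Gjb1 at 32.1 and 39.3.

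Over the 12 epidermis arrays, the probe set most like each member was named by Pearson's r among 13973 as a description. Gjb1, which was near background, was left out. These arrays fall into naive and CFA sets, which did not overlap for 43.8% of all probe sets in control and 43.5% in mutant mice. Gjb6 was closest to Myo5b (r = 0.998), a myosin motor of membrane recycling, and Gjb2 to Jund (r = 0.991), a subunit of AP-1. Panx1 was closest to Vav3 (r = 0.994). Panx3 was closest to Far2 (r = 0.990), a fatty acyl reductase, Gjb5 to Bola2 (r = 0.989), Panx2 to Mafg (r = 0.965) and Gja1 to Nsmf (r = 0.932).

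Other genes of the same processes were taken as lists. Of 15 other connexins 11 had a probe set of their own, and none was called in any comparison, while 2 were higher with CFA at an unadjusted limma p under 0.05 in control and 3 in mutant epidermis, and 1 was lower in mutant DRG. The shares of all probe sets at that p were 38.8%, 38.4% and 7.15%, and 2 and 3 of 11 lie under the shares for CFA. In every epidermis group 7 of these 11 lay below background. Gjd3 went from 7.04 to 7.30 with CFA in control epidermis (limma adjusted p = 0.136), and Gja3, the neighbour of Gjb2, from 6.13 to 6.20 (limma adjusted p = 0.674).

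Of 20 measured partners of gap junctions, which anchor or turn over connexins, 1 rose and 5 fell with CFA in control epidermis. In mutant epidermis 2 rose and 4 fell, or 30.0% in each genotype. This was near the 26.3% and 26.0% of all probe sets called. Nedd4, a ubiquitin ligase that acts on connexin 43, rose by 0.56 and 0.53 on the log2 scale. Tjp1 (ZO-1), a scaffold that binds connexin 43, fell by 0.48 and by 0.47, and occludin (Ocln), a tight junction protein, fell by 0.81 and by 0.56. Cnst, consortin, a receptor in connexin trafficking, fell by 0.76 and by 1.01.

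Of 21 measured genes for other proposed routes of ATP release, 3 rose and 6 fell in control epidermis and 2 rose and 3 fell in mutant epidermis (42.9% and 23.8%). Over all probe sets these shares were 26.3% and 26.0%. Slco2a1, a prostaglandin transporter linked to large anion channels, rose 2.05-fold and 2.09-fold, and the calcium homeostasis modulator Calhm2 rose 1.47-fold and 1.56-fold. Ank, a membrane protein of pyrophosphate and ATP export, fell 2.15-fold and 1.98-fold. Lrrc8e, a subunit of volume-regulated anion channels, fell by 0.58 and by 0.40 on the log2 scale. Calhm5 was called lower in each genotype, but it lay below background with CFA. Its fold was at least 1.24 in control epidermis, where the naive arrays gave 4.59, 5.79 and 4.74, with 2 of 3 above background. In mutant epidermis its fold could not be bounded, since the naive mean of 4.70 lay under the background of the CFA mutant arrays.

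Of 13 measured enzymes and transporters that act on nucleotides and adenosine, inside or outside the cell, 3 rose and 5 fell in control epidermis. In mutant epidermis 3 rose and 3 fell (61.5% and 46.2%). Over all probe sets these shares were 26.3% and 26.0%. Nt5e (CD73), which makes adenosine from AMP, fell 2.28-fold in control (limma adjusted p = 0.0007) and 2.17-fold in mutant epidermis (limma adjusted p = 0.000436). Acpp, an acid phosphatase that also cleaves AMP, fell by 0.67 in each genotype, and the adenosine transporter Slc29a1 fell by 0.81 in control epidermis, with -0.29 (limma adjusted p = 0.0532) in the mutant. The kinase Ak1 rose by 0.53 and 0.39, and Slc29a2, another nucleoside transporter, by 0.55 and 0.36. None of these 3 lists had a gene called between genotypes in naive epidermis, CFA epidermis or DRG. Nor was any called for the genotype difference in the CFA response. At an unadjusted limma p under 0.05 no gene of these lists was reached in naive epidermis (8.94% of all probe sets). At that p the lists had 2 of 20, 1 of 21 and 2 of 13 genes in CFA epidermis (8.96% of all probe sets) and 3 of 20, 0 of 21 and 1 of 13 in DRG (7.15%).

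**Figure D4:**
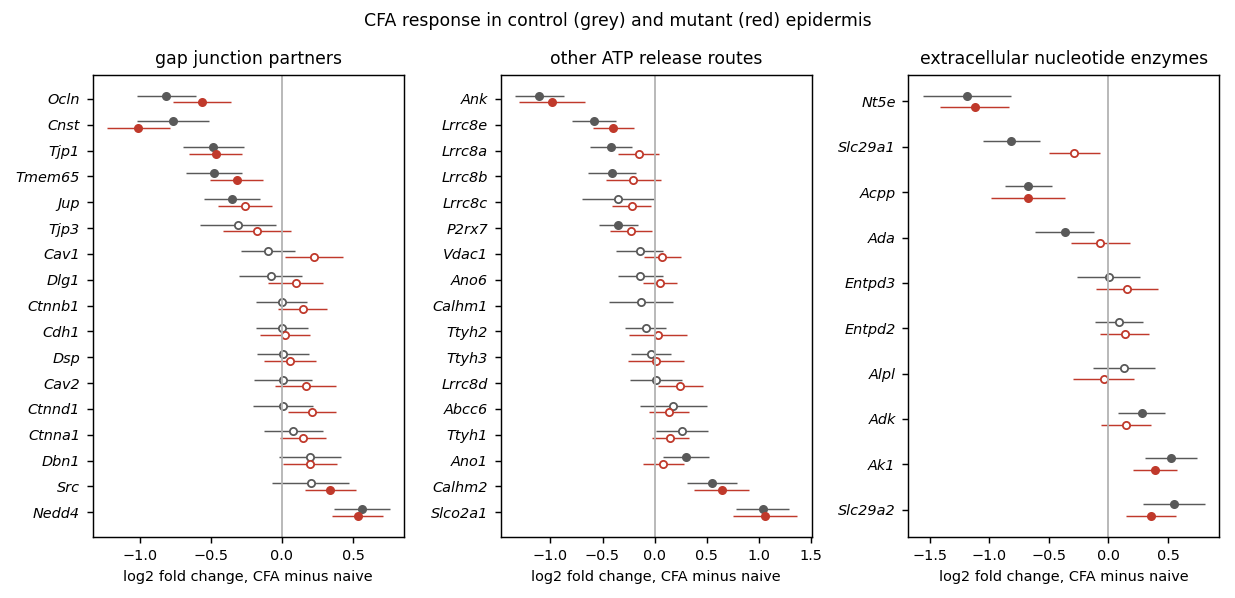
Log2 fold change with its 95% interval from limma, CFA minus naive epidermis, for 3 lists of related genes in control (grey) and mutant (red) mice, with filled circles at an adjusted p under 0.05. Slco2a1, Calhm2 and Nedd4 lie above 0 and Ank, Nt5e and Cnst below 0 in both genotypes, and a gene below background in either group is not drawn.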

How the data were processed

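RNA of epidermis and DRG was hybridised to 18 Affymetrix gene arrays in 6 groups of 3. The files deposited by the authors hold a log2 signal for each probe set, made by RMA, with Partek named in the labels, and the sources used here name no genome build. The values were used as deposited. The replicates are biological in the study's methods, and the sources used here do not say which arrays share mice. Dispase treatment lasted 1 hour per the labels.

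Of 35556 probe sets, 23410 were paired with at least 1 gene and tested. Comparisons were made with limma 3.58.1 (lmFit, eBayes; R 4.3.3) on the groups compared, two-sided, with Benjamini-Hochberg adjustment over all 23410. Where a group lay below background on all arrays, its background took the place of its mean and the fold is a lower bound. Fits were checked on simulated arrays. The named genes are the 8 members and up to 4 genes of each list and comparison, the called ones with the largest change first. Members and lists were chosen with earlier results of these data known. Genes lacking an own probe set are not analysed here. Promoters came from RefSeq (GRCm38.p6), with 9 windows for 6 of the 8 genes. Alternatives were further quantile normalization, median centring, filters on dim and unnamed probe sets, trend and robust moderation, no moderation, array weights, replicate number as a block, 1 fit of all epidermis groups, other thresholds and leaving out arrays. Python 3.11.15, numpy 2.4.6, pandas 2.3.3 and matplotlib 3.10.9 made the tables and plots.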

Additional observations from a re-analysis of the deposited data

How the results depend on the processing

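With the threshold unchanged, 752 of 759 values of single genes under the alternatives kept their direction and their side of the threshold or changed sign without being called, 1 lost its call, 6 gained one and 0 called values changed sign. Among values not called either way, 37 changed sign, in 14 of 48 differences. The lost call was Panx2 with CFA in control epidermis without moderation of the variance (adjusted p = 0.0552). In CFA epidermis, the number of the 8 genes called between mutant and control went from 0 to 1 with array weights (Gjb2), and to 2 with all epidermis groups in 1 fit (Gjb2 and Gjb6). With replicate number as a block it was 1 (Gjb2, adjusted p = 0.0214). Leaving out each array in turn gave 0 to 2 there. The replicate numbers are not stated to pair arrays. The deviations of arrays with the same number correlated at -0.24 to 0.23, which cannot show whether such arrays share mice or a batch. The block moved the count in no other comparison. At a 2-fold threshold, with adjusted or unadjusted p, 3 of the 6 genes called with CFA in control epidermis were left, since Gjb5, Panx1 and Panx2 changed by less. Leaving out the DRG arrays with most keratinocyte transcripts, control replicate 3 and mutant replicate 1, was chosen after seeing the data and called 0 genes. The cause of the other changes was not tested. Gjb1 in epidermis and Gjb2, Gjb5, Gjb6 and Panx3 in DRG lay too near to background, or below it, for their signal to bear on small differences.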
